A study of Mus musculus with 18 samples.

Results

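The effect of stimulating the designer receptor hM3Dq on gene expression in cultured mouse cortical astrocytes was compared between 90 min and 3 days. Of 13391 genes tested, 53 had an effect called different between the times. The effect was lower at 3 days in 51 of them (0.381%) and higher in 2 (0.0149%). In 50 genes a rise at 90 min was followed by no called effect at 3 days, among them Fos, Egr2, Dusp5, Ptgs2, Clcf1 and Lif. The members are all genes for which the difference (hM3Dq minus control at 3 days) minus (hM3Dq minus control at 90 min), on the log2 scale, passed a Benjamini-Hochberg adjusted p of 0.05 in edgeR's quasi-likelihood test over 12 libraries. They make up 0.396% of the genes tested, and the tables held 22078 genes in all.

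This receptor (a DREADD) is the human M3 muscarinic receptor changed so that it answers a synthetic ligand, and it couples to Gq. The cells were grown on coated plates in medium with fetal bovine serum and passaged. The 12 libraries formed 4 groups of 3. Cells carrying a plasmid for hM3Dq and control cells carrying EGFP were lysed at 90 min, and cells carrying hM3Dq and control cells carrying mCherry were lysed 3 days later. All 4 groups received 8 µM of the synthetic ligand DCZ (deschloroclozapine) for 90 min, 7 days after plasmid transfection with the reagent HilyMax, and the later groups were then kept in medium without DCZ. No group carried hM3Dq without DCZ, so an effect of stimulation and another effect of carrying the receptor cannot be told apart. The time, the deposited table and the control protein change together, so an effect of time and a difference between EGFP and mCherry as controls cannot be told apart either. The promoter on the plasmids and the share of cells that took them up are not given in the sources used here. Whether replicates came from separate cultures is not stated, and p-values here cover only the scatter of these libraries, part of which may be technical.

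The libraries held 16.6 to 21.5 M estimated counts. In 2 control libraries the profile stood apart: EGFP replicate 1 and mCherry replicate 3 differed from the other libraries of their groups by a chi-square per degree of freedom of 89.0 to 92.0 and 59.8 to 60.4, against 5.65 and 4.51 between the remaining pair of each group. The summed level of 34 cell cycle genes was 4355 CPM (counts scaled to library size, TMM-normalised) in EGFP replicate 1 and 817 to 1086 CPM in the other libraries at 90 min. The summed level of 18 ribosomal protein genes was 6338 CPM in mCherry replicate 3 and 10510 to 12520 CPM in the other 3-day libraries, and 40.2% of its values were not whole numbers, against 27.0% to 29.5%. A nuclear-retained RNA stood at 19.1 to 22.9 CPM with hM3Dq and at 34.4 to 41.5 CPM with mCherry at 3 days. The part of these signs in the results was not tested. Counts of calls, classes and lists are given with and without them. Of the astrocyte markers, Vim stood at 5843 ± 535 CPM (SD, n = 3), Sox9 at 281 CPM and Aldoc at 195 CPM on average in hM3Dq cells at 90 min, while Gfap stood at 2.23 to 2.66 CPM in hM3Dq cells at 90 min and at 23.1, 2.00 and 2.36 CPM in the EGFP libraries. All 12 astrocyte markers had counts. Vim made up most of their summed level in hM3Dq cells at 90 min, so the sum says little about the others. The sum was 6138 to 7261 CPM with hM3Dq and 5453 to 6004 CPM with EGFP at 90 min. At 3 days it was 4010 to 4250 CPM with hM3Dq and 3317 to 4136 CPM with mCherry. The part of this difference in the results was not tested. The summed level of 13 fibroblast and mural markers was 3011 to 4117 CPM over the 12 libraries, with Col1a1 at 1572 ± 272 CPM (SD, n = 3) in hM3Dq cells at 90 min, and which cells carried these transcripts was not tested. The summed levels of 13 neuron, 13 microglia, 10 endothelial and 12 oligodendrocyte lineage markers were 127 to 225, 176 to 328, 54.6 to 79.9 and 91.1 to 116 CPM, with the oligodendrocyte gene Opalin at 0 in every library. In bulk RNA, fewer cells of a type and less RNA per cell cannot be told apart. The mouse gene Chrm3, the counterpart of the human receptor gene on the plasmid, had a change of effect of −0.59 (adjusted p = 0.739, edgeR). Whether reads of the plasmid were assigned to it was not tested.

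Gq-coupled receptors activate phospholipase C, which raises calcium in the cell and activates protein kinase C, and this feeds into the ERK kinase cascade. Kinases and calcium act on factors that are already present, such as CREB and SRF, and these switch on immediate-early genes without new protein synthesis. Many of their transcripts are short-lived, and several of the encoded proteins shut the pathway off again. In astrocytes, calcium signalling through Gq is a common response to transmitters.

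CREB binds the cyclic AMP response element (CRE) and SRF binds the CArG box. Promoters of 4 genes with large changes are shown first, chosen because their windows hold a CArG box or the core of a CRE. Fosb, Nr4a2 and Sgk1 also had large changes (−3.23, −2.67 and −2.65), and their windows held neither. Each is a RefSeq window of 300 bases around the annotated start on GRCm38.p6, 5′ to 3′. For Egr2 it is 1 of 5 such windows, the one with most matched letters, and for the others the only one. Capitals mark CArG boxes and the 6-letter core of the CRE.
Dusp5, chr19:53528895-53529194, plus strand: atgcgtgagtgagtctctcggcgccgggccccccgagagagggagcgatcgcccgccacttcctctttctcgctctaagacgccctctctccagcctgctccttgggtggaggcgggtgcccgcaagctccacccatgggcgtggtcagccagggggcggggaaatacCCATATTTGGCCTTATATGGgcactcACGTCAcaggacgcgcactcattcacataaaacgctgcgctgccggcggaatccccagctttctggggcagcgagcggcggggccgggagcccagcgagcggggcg
Egr2, chr10:67537619-67537918, plus strand: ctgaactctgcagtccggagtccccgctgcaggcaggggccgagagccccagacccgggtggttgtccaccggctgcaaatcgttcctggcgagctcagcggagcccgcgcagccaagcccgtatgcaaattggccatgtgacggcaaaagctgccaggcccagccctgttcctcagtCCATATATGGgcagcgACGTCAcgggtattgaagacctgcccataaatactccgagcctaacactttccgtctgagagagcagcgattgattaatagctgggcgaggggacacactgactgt
Fos, chr12:85473640-85473939, plus strand: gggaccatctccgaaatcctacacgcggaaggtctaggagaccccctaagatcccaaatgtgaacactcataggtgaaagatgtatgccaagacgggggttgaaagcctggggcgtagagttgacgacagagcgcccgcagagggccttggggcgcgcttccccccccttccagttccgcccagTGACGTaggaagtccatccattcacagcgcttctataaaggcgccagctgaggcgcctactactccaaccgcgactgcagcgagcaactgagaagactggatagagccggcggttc
Ptgs2, chr1:150099781-150100080, plus strand: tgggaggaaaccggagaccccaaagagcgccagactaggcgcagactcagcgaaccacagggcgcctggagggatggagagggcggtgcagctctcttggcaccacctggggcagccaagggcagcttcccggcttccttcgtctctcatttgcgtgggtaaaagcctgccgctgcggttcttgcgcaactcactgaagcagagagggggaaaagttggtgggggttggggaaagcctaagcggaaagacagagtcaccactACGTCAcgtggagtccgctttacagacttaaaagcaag

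Counted from the annotated start, Dusp5 holds CArG boxes from −82 and −72 and a CRE core from −56. Egr2 holds a CArG box from −72 and a CRE core from −56. The cores lie from −66 in Fos and from 12 in Ptgs2. A window was available for 40 of the 50 transient genes that were higher at 90 min and for 10635 of the genes tested. A gene was counted if any of its windows held a motif on either strand. The CRE core TGACGT was present in 9 of the 40 (22.5%), against 12.9% of the tested genes with a window: Atf3, Dusp5, Egr2, Egr4, Ell2, Errfi1, Flt1, Fos and Ptgs2. This 6-letter motif was added after the data had been seen and lies inside the full CRE TGACGTCA, which 3 of the 40 held (7.5% against 3.56%). The AP-1 site TGANTCA, which Fos family dimers bind, was present in 6 of the 40 (15% against 6.27%): Lif, Rgs17, Serpinb8, Sipa1l2, Slc7a1 and Srxn1. The CArG box was found in 2 (5% against 1.61%) and the EGR site GCGTGGGCG in 2, Ifrd1 and Sipa1l2 (5% against 1.42%). These matches describe letters in the windows, and binding was not measured.

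Genes were placed by their calls at the 2 times and by the call of the change. A transient gene had its effect called at 90 min, not at 3 days, and the change called. A reversed gene had effects called in opposite directions, a late gene had an effect called only at 3 days with the change called, and a lasting gene had effects called in the same direction with no change called. At 90 min the effect was called for 163 genes (1.22%), 146 higher (1.09%) and 17 lower (0.127%). The effect at 3 days was called for 1 gene (0.00747%). The 53 members divided into 51 transient genes, 1 reversed gene (Egr3) and 1 gene called at neither time (Rhobtb2). No late and no lasting gene was found with edgeR. At 3 days 1318 genes (9.84%) had an unadjusted p below 0.05. DESeq2 called the change for 202 genes (1.51%), the effect at 90 min for 339 (2.53%) and that at 3 days for 66 (0.493%), with 20 late and 2 lasting genes, and limma-voom gave 0 late and 0 lasting genes.

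**Figure D1:**
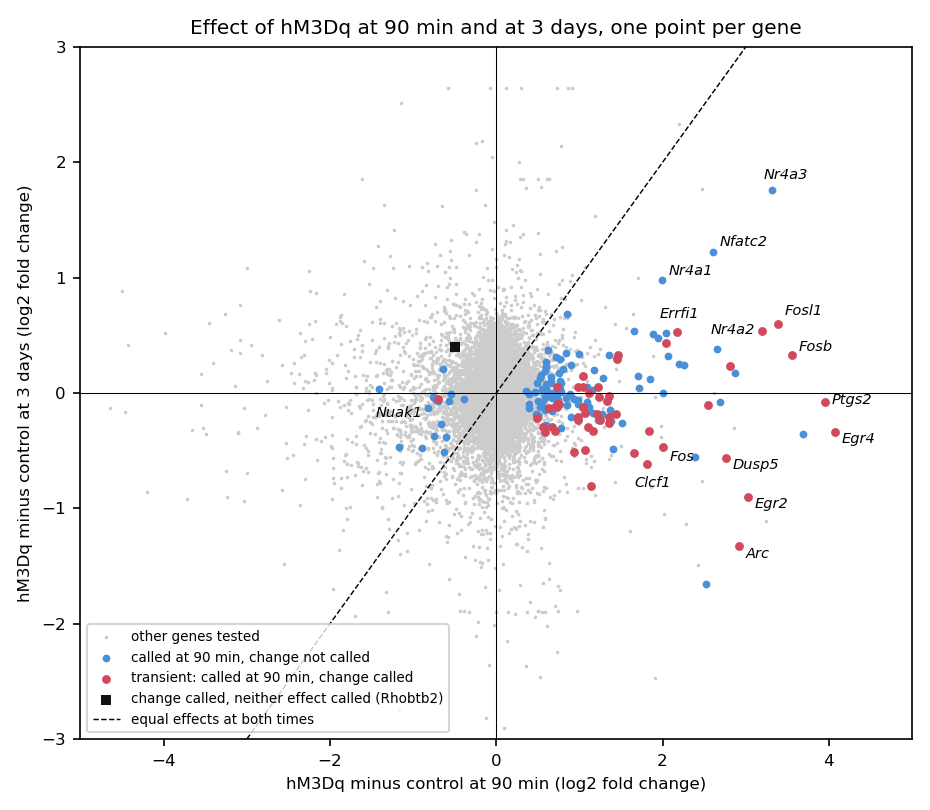
Log2 effect of hM3Dq over its control at 90 min (horizontal axis) against the effect at 3 days (vertical axis), each point a gene (13370 of 13391 tested; 21, Egr3 among them, lie beyond the axes). Red points are transient genes, which lie between −1.33 (Arc) and 0.59 (Fosl1) on the vertical axis and, apart from Nuak1, to the right of 0; blue points were called at 90 min without a called change, the black square is Rhobtb2, and the dashed line marks equal effects.

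The transcription factors included the Fos family, whose proteins form the AP-1 complex with Jun proteins. Fos (Entrez 14281) stood at 53.2, 55.7 and 52.0 CPM in the hM3Dq libraries at 90 min and at 10.0, 14.8 and 15.3 CPM with EGFP. At 3 days it stood at 10.2, 11.2 and 10.4 CPM with hM3Dq and at 14.7, 16.2 and 13.0 CPM with mCherry. The hM3Dq libraries were thus all above the control at the first time and all below it at the second. The log2 effect was 2.01 ± 0.15 (SE) and then −0.47 ± 0.15, a change of −2.47 ± 0.21 (adjusted p = 0.000118, edgeR). Libraries of the 2 groups did not overlap at 90 min in 15% of all genes tested and at 3 days in 24.5%, so non-overlap of 3 against 3 alone is common here.

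Fosb (14282), a close relative of Fos, stood at 39.5, 34.8 and 34.0 CPM with hM3Dq against 2.93, 2.85 and 3.39 CPM with EGFP. In the 3-day libraries it stood at 2.34, 2.80 and 1.83 CPM against 2.23, 1.85 and 1.45 CPM, and the groups overlapped. The change of its effect was −3.23 ± 0.27 (adjusted p = 0.0001, edgeR). Fosl1 (14283), another Fos family member, stood at 41.5, 46.3 and 36.1 CPM against 4.68, 3.48 and 3.62 CPM at 90 min. At 3 days it was low in both groups, at 0.81, 1.17 and 0.92 CPM against 0.69, 0.48 and 0.72 CPM. Its control level therefore also differed between times, by −2.62 on the log2 scale, and the change of effect was −2.79 ± 0.31 (adjusted p = 0.00111, edgeR). Fosl2, the fourth member, stood at 253 to 323 CPM with hM3Dq against 102 to 118 CPM with EGFP, and at 73.7 to 85.7 CPM against 63.3 to 65.3 CPM at 3 days. It remained above the control in every library at 3 days, with an effect of 0.33 ± 0.11 that was not called, and the change was −1.13 ± 0.15 (adjusted p = 0.00457, edgeR).

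The zinc-finger factor Egr2 (13654) stood at 23.3, 22.3 and 20.2 CPM with hM3Dq at 90 min and at 2.36, 3.08 and 2.65 CPM with EGFP. At the later time it stood at 3.77, 2.85 and 3.55 CPM with hM3Dq and at 4.52, 7.74 and 6.79 CPM with mCherry. All 3-day hM3Dq libraries were below the mCherry libraries, while the control itself was 1.24 log2 units higher at 3 days than at 90 min. The change was −3.92 ± 0.29 (adjusted p = 5.5e-05, edgeR). Its relative Egr3 (13655) is the one gene placed as reversed, and its value is uncertain. It had 351, 340 and 221 counts with hM3Dq at 90 min and 57, 15 and 33 with EGFP. At 3 days it was listed at 0 in all 3 hM3Dq libraries and at 59, 66 and 91 counts with mCherry. Against a floor of 3 counts per library the 3-day level was at least 24.8-fold lower than the control. In all, 50 genes were listed at 0 in every library of a group while averaging at least 20 counts in another, 22 of them in both 3-day groups, and an exact 0 in estimated counts can be a failed assignment of reads. The fitted change of −12.47 (adjusted p = 0.000239, edgeR) depends on how 0 is treated and is no measure of size. With the replicate block within each time the change was still called, but the 3-day effect was not (adjusted p = 0.169).

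Of the NR4A orphan nuclear receptors, Nr4a2 (18227) was called for the change. It stood at 83.5, 63.9 and 70.8 CPM with hM3Dq against 5.81, 9.53 and 8.46 CPM with EGFP. At 3 days it stood at 3.61, 4.14 and 4.04 CPM against 2.61, 2.50 and 3.01 CPM, still higher in every hM3Dq library. The change was −2.67 ± 0.26 (adjusted p = 0.000318, edgeR). Nr4a1 (15370) stood at 486, 483 and 422 CPM against 144, 111 and 95.5 CPM at 90 min, and at 13.5, 14.7 and 14.3 CPM against 6.86, 8.57 and 6.13 CPM at 3 days. Its level was lower at 3 days in both groups, by 5.03 log2 units with hM3Dq and 4.03 in the control, and all hM3Dq libraries were above the control at both times. Its effect was 1.99 and then 0.98 ± 0.17 (adjusted p = 0.13), and the change of −1.01 was not called (adjusted p = 0.0966, edgeR). Nr4a3 followed the same order, at 283 to 359 CPM against 12.9 to 42.2 CPM and then at 2.24 to 2.56 CPM against 0.48 to 0.80 CPM, with a change of −1.56 (adjusted p = 0.526, edgeR). All 3 NR4A genes were higher in every hM3Dq library than in every control library at 3 days, an order that 11.8% of all genes tested showed.

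Atf3, a stress-responsive factor of the CREB family, stood at 51.2 to 59.6 CPM with hM3Dq against 7.36 to 7.99 CPM with EGFP, and at 0.51 to 1.08 CPM against 0.48 to 0.95 CPM at 3 days. Of the 50 transient genes it had the largest difference between times in the control, −3.47. Myc, a growth-promoting factor, stood at 32.3 to 41.6 CPM against 13.4 to 16.6 CPM and then at 12.7 to 13.0 CPM against 13.98 to 16.4 CPM. Its control hardly differed between times (0.06), and the change of effect was −1.62 ± 0.18 (adjusted p = 0.000936, edgeR). Arc (11838), which encodes a capsid-like protein best known from neurons, had 169, 225 and 214 counts with hM3Dq and 51, 21 and 16 with EGFP at 90 min, and 5, 4 and 4 against 10, 14 and 8 at 3 days. Its change of −4.25 ± 0.56 (adjusted p = 0.00414, edgeR) rests on few counts at 3 days. Egr4, at 94 to 123 counts with hM3Dq at 90 min, had 2 to 13 counts in every 3-day library. Egr1 (13653) stood at 56.4, 67.9 and 40.5 CPM against 16.7, 7.76 and 6.61 CPM at 90 min. At 3 days the mCherry libraries stood at 28.01, 35.2 and 8.46 CPM around hM3Dq levels of 16.8, 16.8 and 15.02 CPM. Its change of −2.95 was not called (adjusted p = 0.108, edgeR), and the lowest of the mCherry values belongs to the library that stood apart.

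Genes that damp kinase signalling formed the second group. Dusp5 (240672), a phosphatase that inactivates ERK in the nucleus, stood at 68.4, 69.5 and 58.8 CPM with hM3Dq and at 7.09, 11.4 and 10.5 CPM with EGFP. In the 3-day libraries it stood at 2.90, 3.38 and 3.61 CPM with hM3Dq and at 4.47, 4.94 and 5.18 CPM with mCherry. The order of the groups was reversed at 3 days without overlap, and the 3-day effect of −0.56 ± 0.18 was not called. The change was −3.32 ± 0.25 (adjusted p = 5.5e-05, edgeR). Dusp10 (63953), a phosphatase of the stress kinases p38 and JNK, stood at 27.6 to 30.6 CPM against 9.89 to 11.8 CPM and then at 5.59 to 6.41 CPM against 5.89 to 7.52 CPM. Its change was −1.62 ± 0.18 (adjusted p = 0.00119, edgeR), and its 3-day groups overlapped. Errfi1, an inhibitor of the EGF receptor, stood at 167, 191 and 161 CPM against 27.0, 43.6 and 44.8 CPM. At the later time it stood at 91.3, 91.7 and 93.4 CPM against 57.0, 63.1 and 71.2 CPM, so that all hM3Dq libraries remained above the control. Spry2, an inhibitor of receptor tyrosine kinase signalling, stood at 122 to 137 CPM with hM3Dq at 90 min and at 71.2 to 72.1 CPM at 3 days, inside the mCherry range of 62.1 to 74.8 CPM.

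Of the secreted factors, the IL-6 family cytokines Clcf1 and Lif had the clearest change. Clcf1 (56708), which signals through the CNTF receptor, stood at 195, 209 and 178 CPM with hM3Dq and at 48.0, 58.9 and 58.6 CPM with EGFP. At 3 days it stood at 22.03, 22.9 and 21.2 CPM with hM3Dq and at 38.0, 31.2 and 32.0 CPM with mCherry. The effect of 1.81 ± 0.11 gave way to −0.61 ± 0.11, whose adjusted p was 0.162, and the change was −2.43 ± 0.16 (adjusted p = 3.55e-05, edgeR), the smallest p of all genes. Lif (16878), leukaemia inhibitory factor, stood at 22.4, 22.99 and 19.7 CPM against 7.70, 6.11 and 6.73 CPM, and at 5.75, 5.88 and 5.55 CPM against 7.12, 8.57 and 8.91 CPM at 3 days. Both cytokines were below the control in every hM3Dq library at 3 days, an order that 12.7% of all genes tested showed. Inhba, the subunit of activin A, differed in form. It stood at 148 to 168 CPM with hM3Dq at 90 min and at 146 to 159 CPM at 3 days, while the control was 1.11 log2 units higher at 3 days than at 90 min. The change of effect (−1.16 ± 0.20, adjusted p = 0.025, edgeR) went with this difference in the control, and the hM3Dq libraries of the 2 times overlapped. With the replicate number as a block within each time the change was no longer called (adjusted p = 0.0904).

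Ptgs2 (19225), which encodes the prostaglandin-forming enzyme cyclooxygenase-2, stood at 148, 104 and 149 CPM with hM3Dq and at 9.87, 7.36 and 8.69 CPM with EGFP. In the 3-day libraries it stood at 9.31, 8.74 and 9.53 CPM with hM3Dq and at 8.19, 7.44 and 13.4 CPM with mCherry, with overlap. The effect went from 3.95 ± 0.22 to −0.08 ± 0.22, a change of −4.02 ± 0.31 (adjusted p = 5.5e-05, edgeR). Sgk1, a kinase induced by serum and glucocorticoids, stood at 203, 220.3 and 198 CPM against 39.0, 34.6 and 32.4 CPM, and at 55.4, 63.3 and 66.5 CPM against 49.1, 70.3 and 79.7 CPM at 3 days. Rgs17, which speeds the shut-off of G protein alpha subunits, stood at 45.3 to 47.5 CPM against 11.5 to 14.1 CPM and then at 8.21 to 8.88 CPM against 8.35 to 13.3 CPM. Both ended with overlapping groups, at changes of −2.65 ± 0.22 and −2.17 ± 0.21 (adjusted p = 0.0001 and 0.000318, edgeR).

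The other members included transporter and adhesion genes. The cystine and glutamate exchanger Slc7a11 stood at 16.3 to 22.4 CPM with hM3Dq against 8.46 to 9.19 CPM with EGFP, and at 1.58 to 2.91 CPM against 3.08 to 5.18 CPM at 3 days. The amino acid carrier Slc7a1 stood at 85.3 to 98.8 CPM against 54.0 to 67.4 CPM and then at 20.1 to 21.4 CPM against 23.9 to 27.2 CPM. The bicarbonate transporter Slc4a7 stood at 191 to 206 CPM against 93.7 to 96.3 CPM and then at 86.7 to 88.5 CPM against 105 to 157 CPM. In these 3 transporter genes every 3-day hM3Dq library was below every mCherry library, an order that 12.7% of all genes tested showed. With 1 library left out, the change stayed called in 5 of 12 fits for Slc7a11, in 8 for Slc7a1 and in 12 for Slc4a7. Itga5, a subunit of the fibronectin receptor, stood at 168 to 196 CPM against 70.6 to 72.6 CPM and then at 46.8 to 61.0 CPM against 53.3 to 55.8 CPM. The 18 genes Clcf1, Dusp5, Egr2, Ptgs2, Fosb, Fos, Lif, Egr3, Nr4a2, Fosl1, Dusp10, Arc, Rhobtb2, Nuak1, Nr4a1, Egr1, Gfap and Chrm3 were named by rule, and every other gene was chosen after its values had been seen.

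The 2 genes with a higher effect at 3 days had small changes. Nuak1 (77976), a kinase related to AMPK, stood at 58.9, 56.8 and 54.6 CPM with hM3Dq and at 89.6, 97.0 and 89.1 CPM with EGFP. At the later time it stood at 109, 99.0 and 106 CPM with hM3Dq and at 114, 112 and 102 CPM with mCherry, with overlap. It was the one transient gene that was lower at 90 min, and the change was 0.64 ± 0.12 (adjusted p = 0.0368, edgeR). Rhobtb2 (246710) stood at 19.1, 20.3 and 15.3 CPM against 25.3, 26.3 and 25.7 CPM. At 3 days the order was opposite, at 32.5, 35.0 and 35.1 CPM against 27.8, 25.7 and 24.2 CPM. Its effect of −0.50 at 90 min (adjusted p = 0.0567) and of 0.40 at 3 days (adjusted p = 0.354) each missed the threshold, and the difference between them was 0.90 ± 0.16 (adjusted p = 0.0317, edgeR). The calls of these 2 genes were lost in 14 of the alternative fits for Nuak1 and in 9 for Rhobtb2, the replicate block within each time among them (adjusted p = 0.161 and 0.135).

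**Figure D2:**
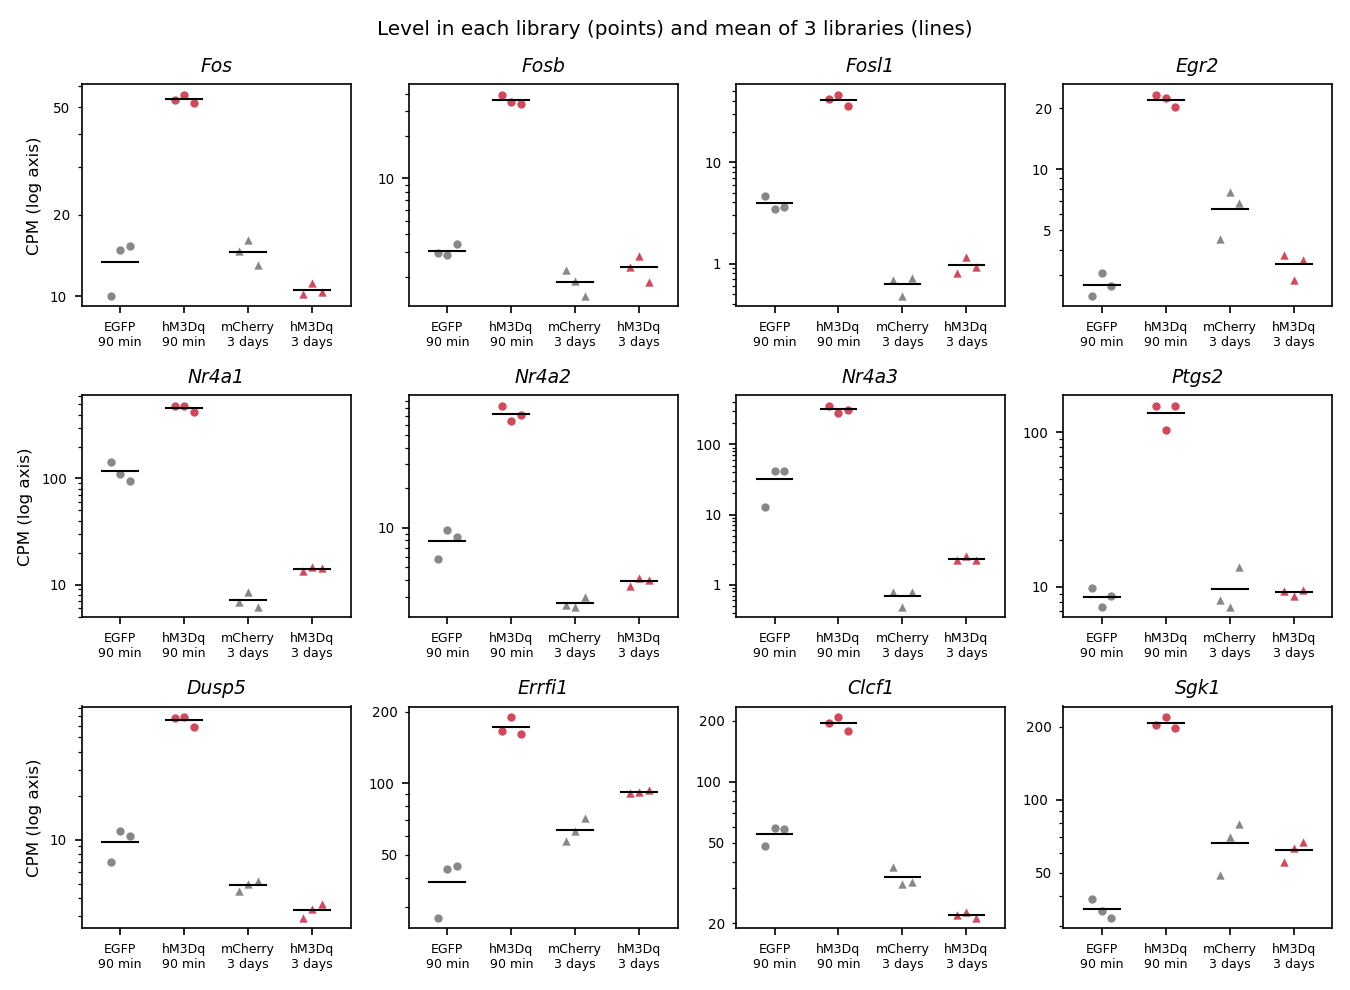
CPM (log axis) of 12 genes in each of the 12 libraries, grouped as hM3Dq and control at 90 min and at 3 days, each point a library. In all 12 genes the hM3Dq libraries lie above the control libraries at 90 min, and at 3 days the order ranges from below the control (Fos, Egr2, Dusp5, Clcf1) through overlap (Ptgs2, Sgk1) to above it (Nr4a1, Nr4a2, Nr4a3, Errfi1).

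The change of effect was also taken apart into the difference between times within each kind of culture. In the hM3Dq cultures 20.2% of all genes tested were called lower at 3 days and 17.6% higher, and in the control cultures 21% and 18.4%. Of the 50 transient genes that were higher at 90 min, 49 were called lower at 3 days within the hM3Dq cultures (median −1.68, from −6.05 for Atf3 to −0.05 for Inhba). Within the control cultures 22 were called lower, 9 higher and 19 neither (median −0.18, from −3.47 for Atf3 to 1.24 for Egr2). The share called higher in the control was thus near that of all genes, and the share called lower was above it. Since the rule chose genes by the gap between these 2 differences, the size of the fall with hM3Dq is a description. Relative to the EGFP level at 90 min, the mean 3-day hM3Dq level was lower in 36 of the 50, against 6954 of 13391 genes tested. All 3 libraries were below all EGFP libraries in 29 of the 50, against 3883 of the 13391 (29%). Both shares were larger among the 50 than among all genes. Since the 3-day hM3Dq and the EGFP libraries both entered the rule, these shares are also a description.

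**Figure D3:**
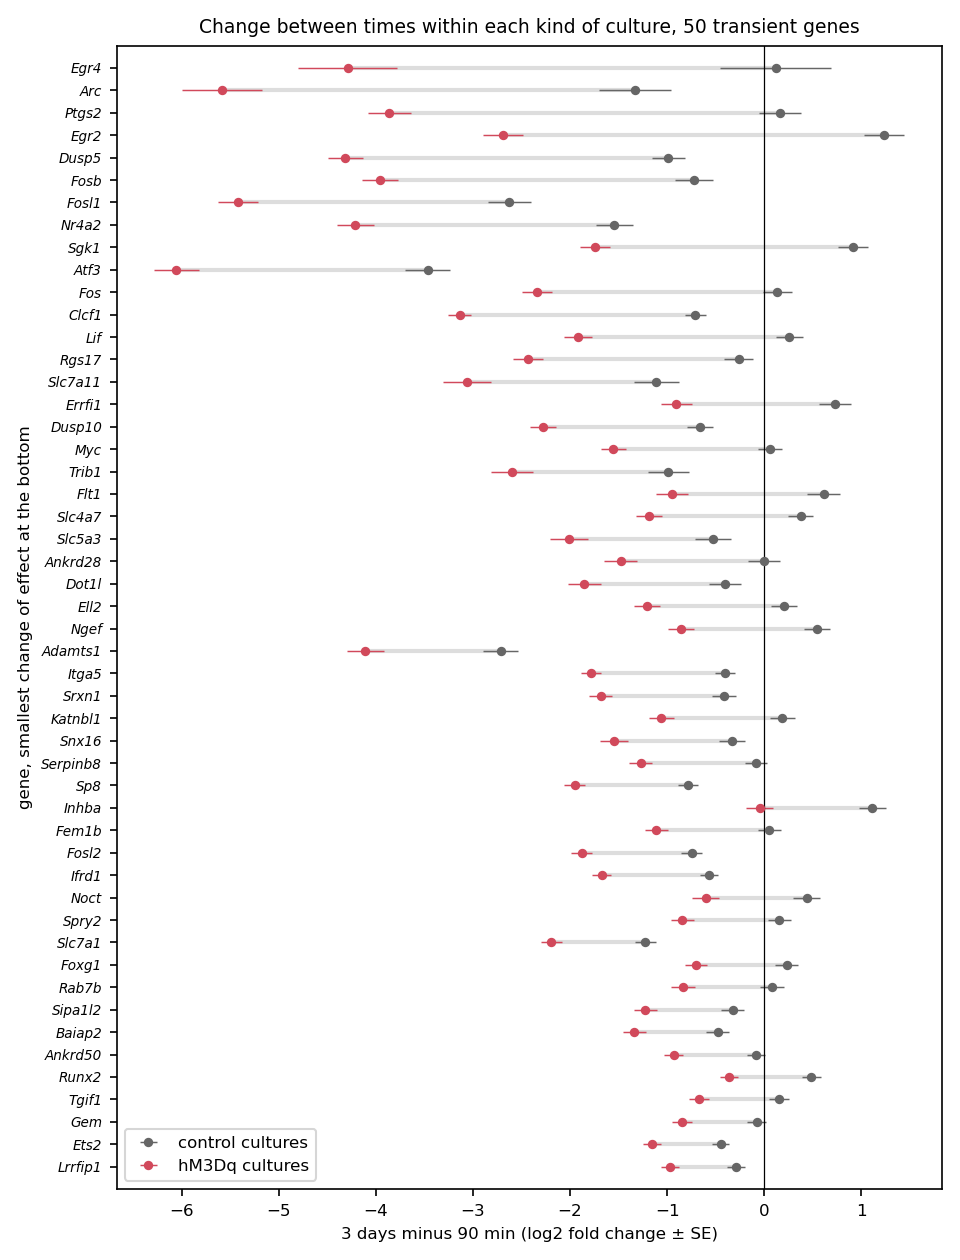
Log2 difference between 3 days and 90 min for the 50 transient genes that were higher at 90 min, in control cultures (grey) and hM3Dq cultures (red), with standard errors. The red points lie below 0 for all 50 genes, and the grey points lie from −3.47 to 1.24 on both sides of 0.

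The fate of the whole early response was followed at 3 days. The genes were called at 90 min in the fit of all 12 libraries, so the 3-day libraries share in the spread and filter behind those calls. The 146 genes called higher at 90 min had a median effect of 1.04 at that time and of −0.03 at 3 days, where the median of all genes tested was −0.01. At 3 days 65 lay above 0, 80 below and 1 (Tac1) had no counts. For 111 of 145 with an interval, the upper 95% bound at 3 days was below 0.5 of the effect at 90 min. The genes were chosen for a high effect at 90 min, which tends to raise its estimate, and its own error was not counted. This count is therefore a description and no test of loss. With each table fitted on its own, a setting added after the data had been seen, 103 genes were called higher at 90 min, and the 95 of them tested at 3 days had a median effect of −0.04 there, 46 above 0 and 49 below. In the fit of all 12 libraries the genes apart from the control at 3 days lay on both sides. An unadjusted p below 0.05 was reached by 13 that were higher (8.9%, against 3.67% of all genes) and by 16 that were lower (11%, against 6.17%).

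The 13 that were higher included all 3 NR4A genes, Errfi1, Fosl2, Csrnp1, Nfatc2 and the hexokinase gene Hk2. The 16 that were lower included Fos, Egr2, Egr3, Arc, Dusp5, Dusp2, Clcf1, Lif and the transporter genes Slc4a7, Slc7a1 and Slc7a11. Only Egr3 among them passed the adjusted threshold at 3 days, so the rest are values and not calls. Among the 146 genes called higher at 90 min, the estimated effect at 3 days was above 0.5 of that at 90 min in 3. These were Nr4a3, Medag and Rbm47 (1.76 of 3.32, 0.37 of 0.63 and 0.69 of 0.85). The 90 min call of Rbm47 was lost with the replicate block. Of the 17 genes called lower at 90 min, 15 were still below 0 at 3 days (against 6852 of 13391 genes tested), with medians of −0.70 and −0.07. In 4 of the 17 the estimated effect at 3 days was above 0.5 of that at 90 min. An unadjusted p below 0.05 (edgeR) was reached at 3 days by 5 that were lower (29.4%, against 6.17% of all genes).

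For 111 genes called at 90 min the change was not called. They include genes of secreted factors with large early effects. Gdnf, a growth factor for neurons, stood at 11.3 to 15.1 CPM with hM3Dq against 1.13, 3.82 and 3.51 CPM with EGFP, and at 5.22 to 6.46 CPM against 4.73 to 5.07 CPM at 3 days (change −1.94, adjusted p = 0.124, edgeR). The chemokine gene Ccl2 stood at 23.8 to 39.5 CPM against 2.08, 8.27 and 9.09 CPM and then at 1.62 to 2.09 CPM against 1.12 to 2.02 CPM (change −2.01, adjusted p = 0.331, edgeR). In both genes the lowest EGFP value was that of EGFP replicate 1. Without that library the change was −1.55 for Gdnf (adjusted p = 0.0038, edgeR) and −1.58 for Ccl2 (adjusted p = 0.0512, edgeR).

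Gene lists by function were read beside the 0.381% of all genes called lower. These lists share genes, so their counts overlap. Of 32 immediate-early genes, 11 were called lower (Arc, Atf3, Egr2, Egr3, Egr4, Fos, Fosb, Fosl1, Fosl2, Myc and Nr4a2), and 21 had been called higher at 90 min. The median effect of the list was 1.32 at 90 min and 0.09 at 3 days. Of 20 feedback genes of the ERK pathway, 4 were called lower (Dusp5, Dusp10, Errfi1 and Spry2), with medians of 0.31 and 0.10. Of 34 secreted growth factors and cytokines 3 were called lower (Clcf1, Inhba and Lif), and of 22 targets of cAMP and CREB 3 (Fosb, Gem and Nr4a2). The call of Gem was lost with the replicate block (adjusted p = 0.15). Of 21 inflammatory NF-κB genes, 5 were called higher at 90 min (Cxcl1, Cxcl2, Ccl2, Ccl7 and Ptx3), with list medians of 0.54 and 0.14. For the change edgeR called 0 of these 21 (8 at an unadjusted p below 0.05), DESeq2 called 1 and limma-voom 0. DESeq2 called more members of several lists than edgeR did, among them 18 immediate-early genes and 10 secreted factors. Without EGFP replicate 1 and mCherry replicate 3, edgeR called the change lower for 26 of 32 immediate-early genes (81.2%, against 2.53% of all genes), 10 of 20 ERK feedback genes, 13 of 35 secreted factors, 7 of 22 targets of cAMP and CREB and 3 of 21 inflammatory genes.

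In several other lists edgeR, DESeq2 and limma-voom each called 0 genes for the change. These were 12 calcineurin and NFAT genes (3 at an unadjusted p below 0.05 with edgeR), 28 interferon-stimulated genes (2), 21 homeostatic astrocyte genes (0) and 18 synapse factors (2). The same held for 15 heat shock genes (2) and 34 cell cycle genes (0). The counts at an unadjusted p in this paragraph also stand without the share of all genes. Without the 2 control libraries edgeR called 1 homeostatic gene higher, and 2 synapse factors and 2 heat shock genes lower. It still called 0 in the calcineurin, interferon and cell cycle lists. Of 35 reactive astrocyte genes, Clcf1 and Ptgs2 were called, and without the 2 libraries 5 were called lower and 5 higher. The 25 genes of glycolysis and lactate had medians of 0.13 at 90 min and 0.30 at 3 days, with 0 called for the change by edgeR (5 at an unadjusted p below 0.05), 1 by DESeq2, and 2 lower and 1 higher by edgeR without the 2 libraries. The 34 cell cycle genes had a median effect of −1.41 at 90 min and −0.37 at 3 days. Without EGFP replicate 1 and mCherry replicate 3 these medians were 0.22 and −0.15. The contrast at 90 min holds no mCherry library, so its sign rests on EGFP replicate 1.

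**Figure D4:**
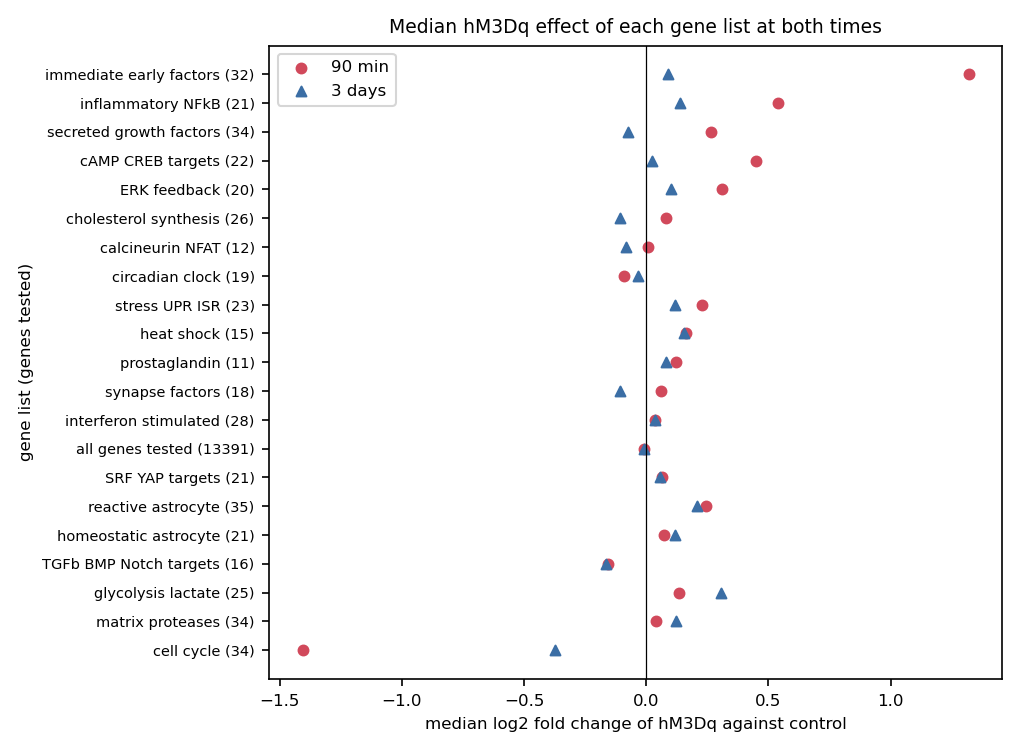
Median log2 effect of hM3Dq at 90 min and at 3 days for 20 gene lists and for all genes tested. The immediate-early list stands at 1.32 and 0.09, and the cell cycle list at −1.41 and −0.37, the latter with EGFP replicate 1 in the control.

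The number of calls depended on the 2 control libraries that stood apart. Without EGFP replicate 1 the change was called for 170 genes, without mCherry replicate 3 for 78, and without both for 501 of 13482 (3.72%), 341 lower (2.53%) and 160 higher (1.19%). All 53 members were among the 501. Leaving out other libraries lowered the count, to 28 and 33 without hM3Dq replicates 1 and 2 at 90 min and to 29 to 30 without any one of the 3-day hM3Dq libraries. At 90 min the effect was called for 80, 90 and 98 genes without hM3Dq replicate 1, 2 and 3, for 266 without EGFP replicate 1, for 286 without mCherry replicate 3 and for 746 (5.53%) without both. The 3-day effect was called for 81 genes without EGFP replicate 1 and for 394 (2.92%) without both, 241 lower (1.79%) and 153 higher (1.13%). Of the 146 genes called higher at 90 min with all libraries, 8 were then called higher at 3 days and 8 lower, and their median effect at 3 days was 0.01. This reading of the 146 was also added after the data had been seen. The 3-day contrast does not contain EGFP replicate 1, which acts on it through the shared estimate of the spread and the filter on low counts.

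Without both libraries the classes other than transient also had members. There were 301 transient, 25 reversed, 100 late and 26 lasting genes, and 44 of the 51 transient genes were among the 301. The reversed genes included Fos, at 1.83 and then −0.54 (adjusted p at 3 days = 0.00831, edgeR), Clcf1, at 1.72 and −0.65, Egr2, at 2.93 and −0.83, Egr1, at 2.93 and −0.96, and Slc4a7. Lasting genes included Nr4a3, at 2.93 and 1.85, and Medag, at 0.76 and 0.43. Nr4a1 (2.17 and 0.88), Errfi1 (1.97 and 0.62) and Inhba (1.29 and 0.39) were called at both times and for the change. The 100 late genes were 50 higher and 50 lower at 3 days. Among those higher were Osmr, a receptor subunit for oncostatin M (0.69), Sfrp1, a secreted Wnt inhibitor (0.65), Steap4, a metalloreductase (0.82), and Lox, which cross-links collagen (0.78). Those lower included Bcan, a brain proteoglycan (−1.20), and the splicing factor gene Srsf2 (−0.32). With all 12 libraries the 3-day effects of these 6 genes were 0.51, 0.59, 0.72, 0.56, −0.99 and −0.30, none called by edgeR. Their signs were the same, but the 2 fits share all other libraries, so this is no separate support.

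**Figure D5:**
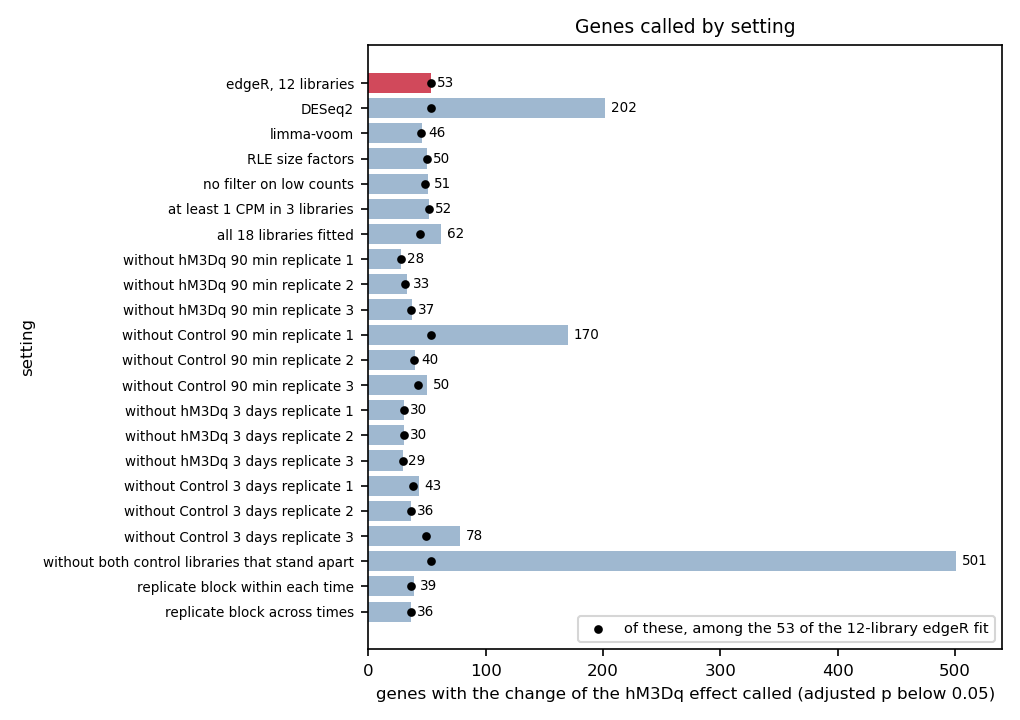
Genes called for the change of effect under each alternative (bars, number of genes), with dots for how many of the 53 members were among them. The bars run from 28 without hM3Dq replicate 1 at 90 min to 501 without both control libraries that stood apart.

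The transient genes were also read in 2 receptors that the rule did not use, rM3Ds, which couples to Gs and raises cAMP, and hM4Di, which couples to Gi, each with 3 libraries at 90 min. The contrast of rM3Ds with hM4Di has no library in common with hM3Dq or its controls. It was called for 2 of 13584 genes (0.0147%), both higher with rM3Ds. Of the 50 transient genes, 31 were above 0, 13 had an unadjusted p below 0.05 and were higher (26%, against 6.26% of all genes), and 1, Nr4a2, was called. Nr4a2 stood at 10.4, 11.4 and 11.8 CPM with hM4Di and at 25.7, 28.4 and 30.9 CPM with rM3Ds, a difference of 1.34 ± 0.17 (adjusted p = 0.0356, edgeR). The hM3Dq libraries at the same time lay between 63.9 and 83.5 CPM. The median of the 50 was 0.14, against −0.01 for all genes. In some of the 50, rM3Ds replicates 2 and 3 lay away from replicate 1, as in Gem (22.3 CPM in replicate 1, 9.86 and 10.3 CPM in the others). In others they lay close to it, as in Katnbl1 (38.7, 38.0 and 38.5 CPM). The part of this in the contrast was not tested. Without rM3Ds replicates 2 and 3 (a choice made after the data had been seen), 1 rM3Ds library remained, and its spread was assumed to be that of the other groups. In that reading 40 of the 50 and 6947 of 14105 genes were above 0, and Nr4a2 had a difference of 1.21. The call of Nr4a2 was made with all 3 rM3Ds libraries, and this reading with 1 library does not back it.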

How the data were processed

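Poly-A RNA was sequenced in bulk. The authors deposited gene-level estimated counts without normalisation, 1 table for each time, both with the same 22078 Entrez identifiers. Per the submitters' processing notes fastp 0.23.4, Salmon 1.8.0 and mm39 were used, with no role or order given. How transcripts were summed to genes and whether counting used strand are not stated, so values of near-identical genes, overlapping genes and antisense partners are uncertain. Symbols matched 99.55% of identifiers. Estimated counts were rounded. Each contrast was tested with the robust quasi-likelihood test of edgeR 4.0.16 in R 4.3.3, with TMM normalisation and edgeR's default filter, over 12 libraries in 4 groups (8 residual degrees of freedom), with Benjamini-Hochberg adjustment over all 13391 genes tested at 0.05. The floor is 3 counts per library, or 0.142 to 0.186 CPM, and covers counting error only. No library pair was a duplicate (lowest chi-square per degree of freedom 2.63).

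Named genes were Fos, Egr1, Nr4a1, Chrm3 and Gfap, the 8 highest and 8 lowest changes among called genes whose mean log2 CPM reached 1, per class and direction the 4 smallest p, and, for every list with 3 or more called members, the 2 with the smallest p. The members and lists were chosen with earlier results of these data known, as was the choice of the libraries left out together. The labels number replicates 1 to 3 without saying what a number shares. Deviations from the group means correlated at 0.13 to 0.17 in the 3 same-numbered pairs at 90 min. Same-numbered pairs at 3 days did not reach 0.1 (0.01 to 0.03). Pairs of unlike number at the same time reached at most 0.05. Of 24 pairs that shared neither number nor time, 4 also exceeded 0.1, up to 0.11. The numbers may thus pair the 90 min libraries, but these correlations are weak. The fit with the replicate number as a block is therefore given beside results whose call it ends. The 28 lists held 552 genes, 542 of them in the tables. Alternatives were DESeq2 1.42.0, limma-voom (limma 3.58.1), other normalisation, filters, library sets, thresholds and class rules. Tested on simulated data for the change of effect (13290 genes, 200 changed), the test recovered 48% of changed genes at a 2-fold and 79% at a 4-fold change, with 8 false among 135 calls. The simulation drew each gene independently, with no effect at 90 min and no library that stood apart. These rates therefore need not hold for the real libraries. Some genes are not analysed here. The reference annotation is of GRCm38 and the files are of mm39, so gene coordinates are given only for the RefSeq promoter windows.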

Additional observations from a re-analysis of the deposited data

Results flagged for a closer look

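The hM3Dq effect differed between the 2 times by the interaction test of edgeR in 53 genes, and each named gene among them is listed with its log2 change of effect. The change was −2.43 for Clcf1, −3.32 for Dusp5, −3.92 for Egr2, −4.02 for Ptgs2, −3.23 for Fosb, −2.47 for Fos and −2.18 for Lif. It was −2.67 for Nr4a2, −2.79 for Fosl1, −1.62 for Dusp10 and −4.25 for Arc. In these 11 genes all hM3Dq libraries were above all EGFP libraries at 90 min. The rule that chose them contains this contrast, so this order is a description. Of all genes tested, 15% had groups apart at 90 min in either direction. Egr3 had a fitted change of −12.47 and is listed at 0 in the 3-day hM3Dq libraries, so that size is not a measurement. The change was 0.90 for Rhobtb2 and 0.64 for Nuak1, both lower with hM3Dq at 90 min.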

How the results depend on the processing

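The 53 members kept their sign in all 21 alternative fits of the change, and 27 were called in every one. The count of changed genes was 202 with DESeq2, 501 without both control libraries that stood apart, and 28 to 170 when 1 library was left out. At 90 min 163 genes became 339 with DESeq2, 107 with the 90 min table fitted alone, 746 without both libraries and 80 to 286 with 1 library left out. At 3 days 1 gene became 66 with DESeq2, 0 with limma-voom, 2 with RLE size factors or either other filter, 5 with all 18 libraries, 394 without both, 0 with the 3-day table alone and 0 to 81 with 1 left out.

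Transient genes numbered 141 with DESeq2, 301 without both, 80 and 28 at thresholds of 0.1 and 0.01, 162 by effects alone and 27 to 125 with 1 left out. Reversed genes numbered 3 with DESeq2, 25 without both, 0 with limma-voom, all 18 libraries, separate tables or a threshold of 0.01, and 0 to 2 with 1 left out. Late genes numbered 20 with DESeq2, 100 without both and 0 to 14 with 1 left out, and lasting genes 2, 26 and 0 to 2. For these differences the cause was not tested, beyond fewer libraries where some were left out.

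With the replicate block within each time the change was called for 39 genes, the effect at 90 min for 115 and at 3 days for 1, with 37 transient, 0 reversed and 1 late, and 36 of the 53 members stayed called. With the replicate block across times the values were 36, 141, 0, 36, 0 and 0.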
